A study of Mus musculus with 7 samples.

Results

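The mitochondrial carriers of the Slc25 family were examined in mouse retinal pigment epithelium (RPE) with and without LC3b. The family was taken by name, as every protein-coding gene whose symbol starts with Slc25a together with Ucp1, Ucp2 and Ucp3. No measured value entered this rule, though it was set with earlier results of these data known. This gave 50 genes of the 52740 identifiers in the table, and 45 of the 50 held enough counts to be tested among 16990 genes. Messenger RNA was sequenced from the RPE of 7 mice, all 24 months of age, and each mouse gave its own unpooled library. The 4 WT mice (F1, F2, F3 and M1; 3 females and 1 male) were C57BL6/J. The 3 LC3b-/- mice (F1, F3 and M; 2 females and 1 male) carried the targeted allele Map1Lc3btm1Mrab in a purchased line of mixed strain origin, in which Map1lc3b is disrupted in the germline and so in every cell of the body. The group number in the mouse names and the strain background differ between WT and LC3b-/- throughout, so neither can be told apart from genotype. Among the LC3b-/- mice, F1 and F3 share a group number and M has another.

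LC3b, the product of Map1lc3b, is a ubiquitin-like protein that is joined to the lipids of autophagosomes and phagosomes. Mitochondrial carriers are small proteins of the inner mitochondrial membrane, built from repeats of one fold, which exchange nucleotides, phosphate, carboxylates, amino acids, cofactors and protons between the cytosol and the matrix. Each repeat carries a signature motif whose charged residues close the matrix side of the transport path. RPE is rich in mitochondria and oxidizes lipids taken up with photoreceptor outer segments.

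The 50 coding sequences encode 265 to 677 residues (median 315) and lie on 19 chromosomes. The motif was searched in the translated coding sequences of GENCODE vM39 (GRCm39) as proline, any residue, aspartate or glutamate, any pair of residues, then lysine or arginine. It was found 3 times in 30 carriers, 2 times in 12, once in 5 (Slc25a17, Slc25a32, Slc25a34, Slc25a35 and Slc25a44) and not at all in 3 (Slc25a46, Slc25a51 and Slc25a53). The windows of the ADP/ATP carriers Slc25a4 (chromosome 8, 46656538 to 46664325, minus strand) and Slc25a5 (chromosome X, 36059223 to 36062462, plus strand), are printed because the results below compare both genes within each library. Capitals mark the codons of the proline, the acidic and the basic residue, and positions are counted in codons from the start codon.
Slc25a4 motif 1, from codon 28: CCGatcGAGagggtcAAA
Slc25a4 motif 2, from codon 133: CCGctgGACtttgctAGG
Slc25a4 motif 3, from codon 230: CCGtttGACactgttCGT
Slc25a5 motif 1, from codon 28: CCCatcGAGagggtcAAG
Slc25a5 motif 2, from codon 133: CCTcttGATtttgccCGT
Slc25a5 motif 3, from codon 230: CCTtttGACacggttCGC
The motif sits at the same codons in both genes, and their coding sequences were identical at 77.4% of aligned bases, the closest of the 8 related pairs aligned (54.8% to 77.4%).

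The deposited counts summed to 24495952 to 35616134 per library. Map1lc3b, the targeted gene, had 4444, 2832, 2778 and 2865 counts in the WT libraries and 168, 332 and 229 counts in the LC3b-/- libraries (log2 fold change −3.98 ± 0.15 SE, adjusted p = 0.000186, edgeR). Levels below are counts per 1000000 of the TMM-scaled library total (CPM), and fold changes are LC3b-/- against WT from edgeR's quasi-likelihood test, with p adjusted over all genes tested. Values per library are given in a fixed order, first the WT mice (F1, F2, F3, M1) and then the LC3b-/- mice (F1, F3, M). The summed CPM of 10 RPE markers ranged from 30087 to 47289 in WT and from 13265 to 28047 in LC3b-/- libraries, 1.91-fold lower on average, with Best1 near 1 CPM in both groups and the visual cycle genes Rpe65 and Rlbp1 abundant in every library. The 8 keratin and mucin markers of ocular surface epithelium summed to 8.57 to 2394 CPM in WT and 3264 to 23155 CPM in LC3b-/-, highest in LC3b-/- F1, and 6 endothelial markers to 354 to 1071 and 1199 to 1498 CPM. Rod and cone markers ranged from 24.8 to 19736 CPM in WT and 43.2 to 6960.1 CPM in LC3b-/-. The marker sums of fibroblasts (328 to 1371 and 836 to 1836 CPM), macrophages and microglia (374 to 519 and 249 to 482 CPM), erythroid cells (182 to 542 and 216 to 662 CPM), skeletal muscle (18.1 to 61.2 and 23.1 to 67.1 CPM) and adipocytes (20.4 to 29.7 and 21.7 to 30.7 CPM) overlapped between WT and LC3b-/-. No defining marker of these lists was at 0 in every library, and the part of such differences in the results for the carriers was not tested. The RPE sheets had been released with trypsin from eyecups stripped of cornea and neural retina. In such bulk samples, fewer cells of a type and less RNA per cell cannot be told apart.

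No carrier passed an adjusted p under 0.05 with a fold change of at least 1.5, where 0.235% of all genes did by edgeR. The smallest adjusted p of a carrier was 0.0842 (Slc25a41). Slc25a41, Slc25a43 and Slc25a48 passed the count filter through the LC3b-/- libraries, the group where they are higher on average. Ucp3 passed it through the WT libraries, where Ucp3 is higher on average. These carriers enter the counts by direction below. At an unadjusted p under 0.05, 4 carriers were higher in LC3b-/- (8.89% of those tested, against 13.5% of all genes) and 8 were lower (17.8%, against 10.6%). The log2 fold change was below 0 for 33 of the 45 carriers (73.3%) and for 48.8% of all genes, and its median was −0.19 for the carriers and 0.01 for all genes. DESeq2 gave an adjusted p under 0.05 with the same fold to 4 carriers, of which Slc25a24, Slc25a41 and Slc25a48 were higher (6.78% of all genes were called higher) and Slc25a47 was lower (3.08% were called lower). The LC3b-/- libraries lay wholly above the WT libraries for 2 carriers (4.44%, against 12% of all genes) and wholly below them for 10 (22.2%, against 10.3%). Scaled by library size alone, 5 carriers lay wholly below (11.1%, against 7.96% of all genes). With 4 against 3 libraries the exact two-sided permutation test of 1 gene cannot give a p below 0.0571.

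The difference was uneven across the LC3b-/- libraries. Set against the WT mean, the median deviation of the 45 carriers was −0.28 in LC3b-/- F1, −0.23 in F3 and −0.07 in M on the log2 scale. The 4 WT libraries spread from −0.13 to 0.09, so that LC3b-/- M lay inside the range of WT and F1 and F3 below it. LC3b-/- M also differs from F1 and F3 in sex and in the group number of its name, and these cannot be told apart. The RPE marker sums of the same libraries, 13265, 15922 and 28047 CPM, had the same order, as did Rpe65, Rlbp1, Lrat, Rdh5, Rgr, Ttr and Rrh each. Tyrp1 had the reverse order (328, 259.8 and 148 CPM in F1, F3 and M), and Pmel and Best1 had neither. The part of these markers in this difference was not tested. The 50 carriers together summed to 3142, 3046, 3493 and 3573 CPM in the WT libraries and to 2801, 2562 and 2938 CPM in the LC3b-/- libraries. These sums did not overlap between the groups, and carriers made up 0.26% to 0.354% of all counts in a library. The sums lean on Slc25a4, which alone stood at 805 to 1041 CPM in WT and 571 to 709 CPM in LC3b-/- libraries. They therefore do not show a separation of the family as a whole.

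**Figure D1:**
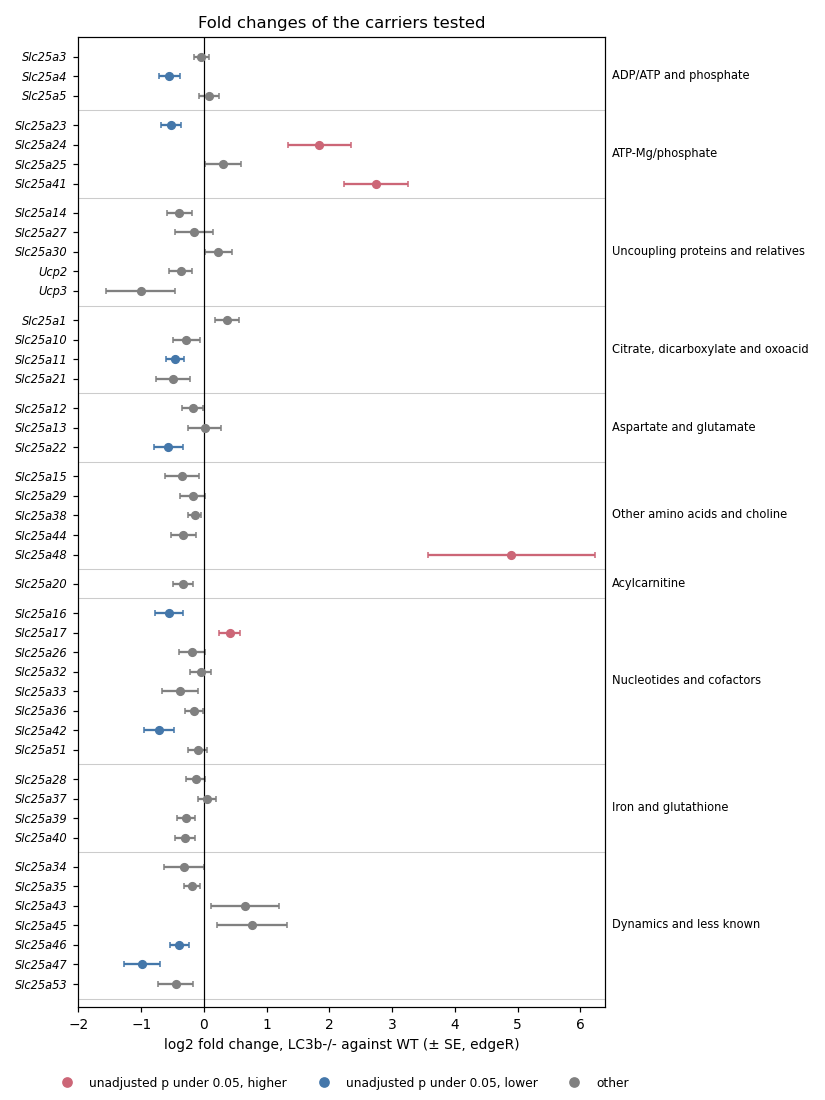
Fold changes of the carriers tested and reported here, arranged by what they carry. The horizontal axis is the log2 fold change of LC3b-/- against WT and bars are its SE. Colour marks an unadjusted p under 0.05; most carriers lie to the left of 0 and close to it, and Slc25a24, Slc25a41 and Slc25a48 lie far to the right.

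Levels were compared between carriers per kb of the canonical transcript. In WT, 4 carriers exceeded 100 CPM per kb, 17 lay from 10 to 100, 19 from 1 to 10, and 10 below 1. Slc25a4 led with 472 ± 54.9 CPM per kb (mean ± SD, n = 4), followed by Slc25a5 with 173 ± 14.4, the phosphate carrier Slc25a3 with 128 ± 7.63 and the uncoupling protein Ucp2 with 126 ± 15.7. Slc25a3 and Ucp2 differed by less than their spread, whereas the steps above them were larger than it. Next came the oxoglutarate carrier Slc25a11 with 59.7 ± 7.29 CPM per kb. In LC3b-/- the order of the first 4 was the same, with 322 ± 39.4, 183 ± 34.8, 125 ± 7.24 and 97.8 ± 19.1 CPM per kb (n = 3), and Slc25a4 stood closer to Slc25a5. The 4 carriers with the most counts held 56.2% to 61.1% of the carrier counts of a library.

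**Figure D2:**
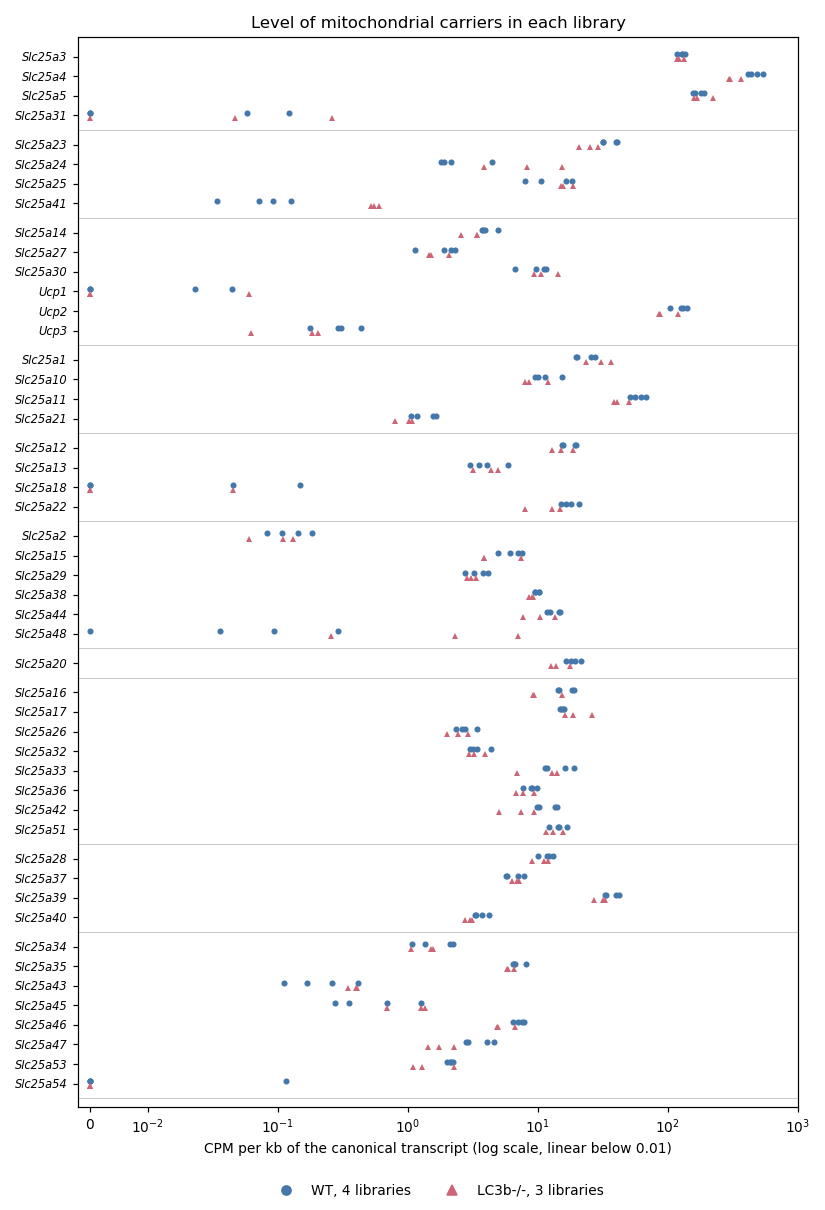
Level of the carriers reported here in every library, in CPM per kb on a log axis that turns linear below 0.01. Circles are the 4 WT and triangles the 3 LC3b-/- libraries, and the rows follow the same order of roles as the fold changes. Slc25a4 stands above all others, and the carriers Ucp1, Slc25a18, Slc25a31 and Slc25a54 lie at or near 0.

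The remaining 5 members were too low to be tested. Ucp1, the proton carrier of brown fat, had 0, 0, 2 and 1 counts in the WT libraries and 0, 4 and 0 counts in the LC3b-/- libraries. Slc25a31, the ADP/ATP carrier of the testis, had 0, 3, 7 and 0 counts in the WT libraries and 0, 4 and 19 counts in the LC3b-/- libraries, and the mitochondrial glutamate carrier Slc25a18 had 14, 3, 0 and 0 counts in the WT libraries and 0, 5 and 0 counts in the LC3b-/- libraries. The ornithine carrier Slc25a2 had 5, 6, 3 and 5 counts in the WT libraries and 2, 7 and 5 counts in the LC3b-/- libraries. Slc25a54 was counted in WT M1 alone, with 5 counts. No fold change is given for these 5.

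Among the ADP/ATP and phosphate carriers, Slc25a4 was the one with an unadjusted p under 0.05. Slc25a4, which exports ATP from the matrix in exchange for ADP and predominates in heart and muscle, stood at 805, 846, 947 and 1041 CPM in the WT libraries and 585, 571 and 709 CPM in the LC3b-/- libraries. The LC3b-/- libraries all lay below the WT libraries (log2 fold change −0.55 ± 0.17 SE, adjusted p = 0.125), and DESeq2 gave adjusted p = 0.0165 with a log2 fold change of −0.57, short of the fold threshold of 0.585. Slc25a5, the more widely expressed paralog, stood at 209, 216, 238 and 251 CPM in the WT libraries and 295, 211 and 221 CPM in the LC3b-/- libraries. Its groups overlapped (log2 fold change 0.08 ± 0.16 SE, adjusted p = 0.771), with LC3b-/- F1 the highest, and without that library the sign turned (log2 fold change −0.08). Slc25a3, which brings phosphate into the matrix, stood at 359.5, 332, 364 and 383 CPM in the WT libraries and 344, 332 and 372 CPM in the LC3b-/- libraries and was nearly level between the groups (log2 fold change −0.04 ± 0.12 SE, adjusted p = 0.865).

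The ratio of Slc25a4 to Slc25a5 within a library is free of library scaling. It was 3.84, 3.92, 3.99 and 4.15 in the WT libraries and 1.98, 2.71 and 3.21 in the LC3b-/- libraries (mean log2 difference −0.62). The WT values were close together (log2 SD 0.05) and all LC3b-/- values lay below them and apart from each other (log2 SD 0.35), lowest in LC3b-/- F1. The exact two-sided permutation p was 0.0571, the smallest that 4 against 3 libraries allow, and 0.267 after adjustment over the 7 related pairs compared. The difference stayed below 0 without any 1 library, between −0.78 (without LC3b-/- M) and −0.43 (without LC3b-/- F1). LC3b-/- F1 also held the most ocular surface marker counts. The order of that marker sum over the LC3b-/- libraries (23155, 6038 and 3264 CPM in F1, F3 and M) is the reverse of the order of the ratio. The WT libraries did not share this order, since WT M1 had both the highest marker sum in WT (2394 CPM) and the highest ratio (4.15). The RPE marker sums were 30783, 30087, 37561 and 47289 CPM in the WT libraries and 13265, 15922 and 28047 CPM in the LC3b-/- libraries. Over the 7 libraries they had the order of the ratio, except that WT F1 and F2 changed places. The part of the ocular surface and RPE markers in the ratio was not tested.

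**Figure D3:**
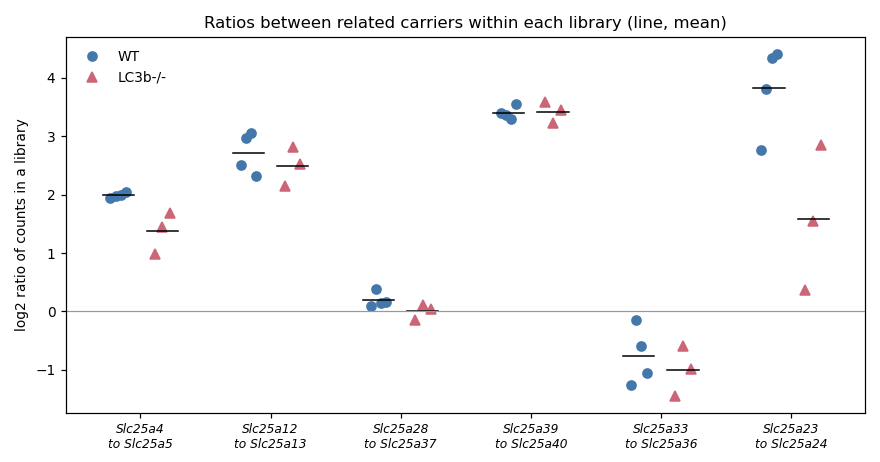
Log2 ratio of counts between related carriers within each library. Circles are the 4 WT and triangles the 3 LC3b-/- libraries, and lines mark the means. The WT ratios of Slc25a4 to Slc25a5 lie between 1.94 and 2.05 and the LC3b-/- ratios between 0.99 and 1.68, while the groups overlap for the other 5 pairs drawn.

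The ATP-Mg/phosphate carriers adjust the adenine nucleotide pool of the matrix and in most members are switched by calcium. Of the 4 members, 3 were higher on average and 1 lower, where 48.8% of all genes were lower. None passed the edgeR threshold. DESeq2 called 2 (Slc25a24 and Slc25a41, both higher), where 6.78% of all genes were called higher. Slc25a41, a short member without the calcium-binding part, had 3, 1, 3 and 4 counts in the WT libraries and 16, 27 and 25 counts in the LC3b-/- libraries. The groups were apart with no overlap (log2 fold change 2.74 ± 0.51 SE, adjusted p = 0.0842; DESeq2 adjusted p = 0.00531), at a level of 0.0807 ± 0.0383 CPM per kb in WT. Its summed counts were 11 in WT and 68 in LC3b-/-, a ratio of 6.96 after scaling (95% exact binomial interval 3.66 to 14.6, counting error only). Slc25a41 passed the count filter through the LC3b-/- libraries alone, where it is high, so its p values, separation and interval are read as description. Slc25a23 (chromosome 17, 57350705 to 57366905, minus strand) lies 2050 bases from Slc25a41 on the same strand, and it was lower on average in LC3b-/-. It stood at 108, 109, 139 and 137 CPM in the WT libraries and 71.3, 85.9 and 99.3 CPM in the LC3b-/- libraries, with every LC3b-/- library below every WT library (log2 fold change −0.52 ± 0.16 SE, adjusted p = 0.127; DESeq2 adjusted p = 0.0509), and its unadjusted p was under 0.05 in all 17 alternative fits.

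Slc25a24, a calcium-switched member, stood at 15.8, 7.71, 6.78 and 6.42 CPM in the WT libraries and 55.2, 29.6 and 13.9 CPM in the LC3b-/- libraries. The values of LC3b-/- F1 and F3 were above all others, while LC3b-/- M lay below WT F1, so that the groups overlapped (log2 fold change 1.84 ± 0.50 SE, adjusted p = 0.107; DESeq2 adjusted p = 0.00416). Without LC3b-/- F1 the log2 fold change was 1.24. The LC3b-/- values followed the order of the ocular surface marker sums given above. The WT values did not, since WT M1 had the highest of those sums in WT (2394 CPM) and the least Slc25a24. The WT values followed the order of the endothelial marker sums (1071, 964, 432 and 354 CPM). In LC3b-/- those endothelial sums (1418, 1498 and 1199 CPM) had another order than Slc25a24. The part of these markers was not tested. Slc25a25, the remaining member, stood at 70.4, 78.4, 45.3 and 33.7 CPM in the WT libraries and 66.1, 64.4 and 79.7 CPM in the LC3b-/- libraries with broad overlap (log2 fold change 0.30 ± 0.29 SE, adjusted p = 0.552). The ratio of Slc25a23 to Slc25a24 was 6.80, 14.0, 20.2 and 21.1 in the WT libraries and 1.29, 2.90 and 7.14 in the LC3b-/- libraries (mean log2 difference −2.25, exact permutation p = 0.114, adjusted p = 0.267). LC3b-/- F1 and F3 had the lowest ratios and LC3b-/- M lay above WT F1.

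Of the uncoupling proteins and their relatives, none had an unadjusted p under 0.05. Ucp2, the member expressed in many tissues, stood at 527, 419.8, 569 and 508 CPM in the WT libraries and 480, 345 and 349.8 CPM in the LC3b-/- libraries. The groups overlapped through LC3b-/- F1 (log2 fold change −0.37 ± 0.18 SE, adjusted p = 0.261). Ucp3, the form of skeletal muscle, was low at 0.177 to 1.24 CPM and had the most negative estimate of the family, with a wide error (log2 fold change −1.01 ± 0.55 SE). The brain-expressed relative Slc25a14 was lower in every LC3b-/- library than in any WT library (log2 fold change −0.39 ± 0.20 SE, adjusted p = 0.283), and Slc25a27 and Slc25a30 overlapped (log2 fold changes −0.16 and 0.23).

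The carboxylate carriers include the oxoglutarate/malate carrier Slc25a11, which with the aspartate/glutamate carriers forms the malate-aspartate shuttle. Slc25a11 stood at 89.1, 97.4, 107 and 118 CPM in the WT libraries and 70.4, 66.4 and 87.3 CPM in the LC3b-/- libraries. The LC3b-/- libraries lay below all WT libraries, LC3b-/- M by the narrowest margin (log2 fold change −0.46 ± 0.15 SE, adjusted p = 0.134). The citrate carrier Slc25a1, which supplies citrate for fatty acid and sterol synthesis, was higher on average at 47.5, 36.4, 37.1 and 51.1 CPM in the WT libraries and 67.4, 56.1 and 43.7 CPM in the LC3b-/- libraries (log2 fold change 0.37 ± 0.19 SE, adjusted p = 0.272), with overlap. The dicarboxylate carrier Slc25a10 and the oxodicarboxylate carrier Slc25a21 were lower on average with overlap (log2 fold changes −0.28 and −0.50).

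The aspartate/glutamate carriers Slc25a12 (aralar) and Slc25a13 (citrin) are the other side of that shuttle. Slc25a12 stood at 98.5, 100.1, 124 and 125 CPM in the WT libraries and 82.1, 95.3 and 119 CPM in the LC3b-/- libraries (log2 fold change −0.18 ± 0.17 SE, adjusted p = 0.540). Slc25a13 stood at 17.2, 12.7, 14.8 and 25.1 CPM in the WT libraries and 18.4, 13.5 and 20.8 CPM in the LC3b-/- libraries (log2 fold change 0.01 ± 0.26 SE, adjusted p = 0.987). The groups overlapped for both, and the ratio of Slc25a12 to Slc25a13, 5.70, 7.85, 8.33 and 4.96 in the WT libraries and 4.44, 7.02 and 5.72 in the LC3b-/- libraries, overlapped between the groups (adjusted p = 0.80). The glutamate carrier Slc25a22 stood at 47.4, 59.5, 51.7 and 43.4 CPM in the WT libraries and 22.6, 42.2 and 37.0 CPM in the LC3b-/- libraries. All LC3b-/- values lay below all WT values, LC3b-/- F1 the furthest (log2 fold change −0.57 ± 0.23 SE, adjusted p = 0.182), and the log2 fold change was −0.35 without LC3b-/- F1. The other glutamate carrier, Slc25a18, had at most 14 counts in a library, so its ratio to Slc25a22 was set by the prior count and is not read here.

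Slc25a48, a choline carrier (chromosome 13, 56585568 to 56622052, plus strand), had the largest fold change of the family. It had 11, 3, 0 and 26 counts in the WT libraries and 598, 314 and 30 counts in the LC3b-/- libraries. It too passed the count filter through the LC3b-/- libraries, so its p values are read as description. LC3b-/- F1 and F3 stood far above all others, and LC3b-/- M with 30 counts stood beside WT M1 with 26, or 0.886 and 1.00 CPM (log2 fold change 4.90 ± 1.33 SE, adjusted p = 0.105; DESeq2 adjusted p = 0.0223). The log2 fold change was 3.58 without LC3b-/- F1 and 6.08 without WT M1. The library with the most Slc25a48 was again the one with the most ocular surface marker counts. Within each group Slc25a48 had the order of those marker sums. The sums were 833, 599.7, 8.57 and 2394 CPM in the WT libraries and 23155, 6038 and 3264 CPM in the LC3b-/- libraries. Between the groups the order broke, since LC3b-/- M had a higher sum than WT M1 but slightly less Slc25a48. The part of those markers was not tested. The other amino acid carriers tested, Slc25a15 (ornithine), Slc25a29 (basic amino acids), Slc25a38 (glycine, needed for heme synthesis) and Slc25a44 (branched-chain amino acids), had log2 fold changes of −0.35, −0.18, −0.15 and −0.33, all with an unadjusted p above 0.05. Slc25a38 was among the carriers whose groups did not overlap although the step was small, at 17.6, 17.7, 18.9 and 18.9 CPM in the WT libraries and 16.6, 15.8 and 17.1 CPM in the LC3b-/- libraries. The acylcarnitine carrier Slc25a20, through which long-chain fatty acids reach β-oxidation, stood at 32.0, 29.4, 34.4 and 38.1 CPM in the WT libraries and 24.7, 22.7 and 31.8 CPM in the LC3b-/- libraries. LC3b-/- F1 and F3 lay below WT and LC3b-/- M within it (log2 fold change −0.34 ± 0.16 SE, adjusted p = 0.228).

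**Figure D4:**
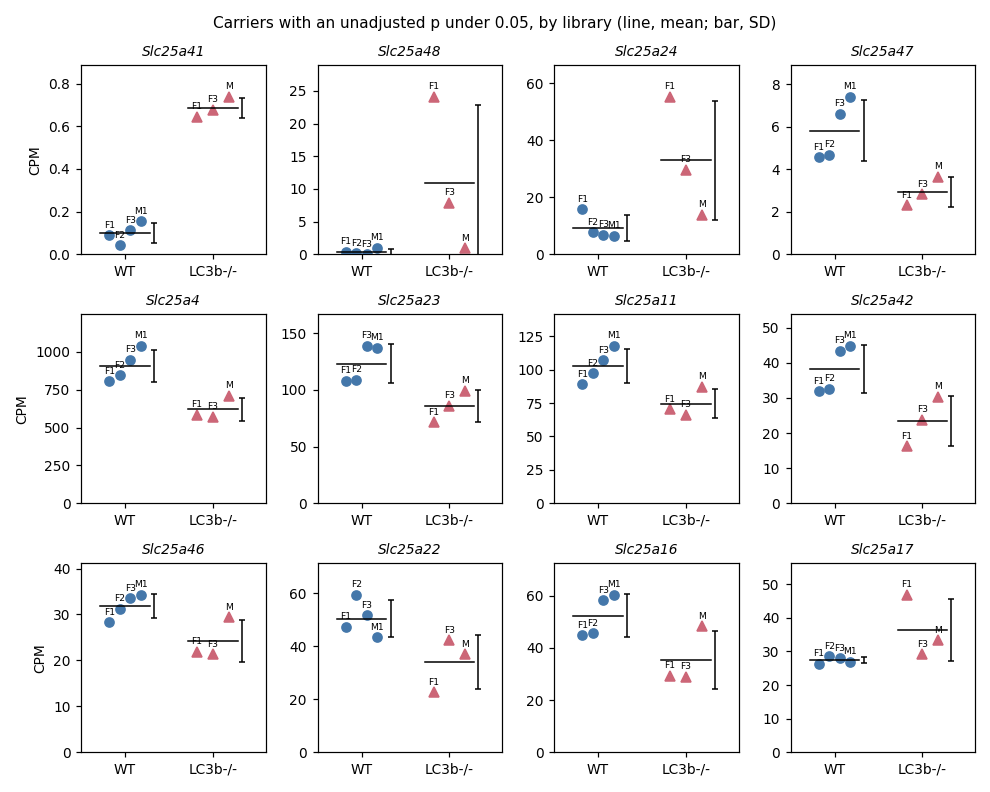
CPM in each library of the 12 carriers with an unadjusted p under 0.05, in order of p. Points carry the mouse name, lines are group means and bars the SD (cut at 0 for Slc25a48). The groups are apart for Slc25a41, Slc25a47, Slc25a4, Slc25a23, Slc25a11, Slc25a42, Slc25a22 and Slc25a17 and overlap for Slc25a48, Slc25a24, Slc25a46 and Slc25a16.

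Carriers of nucleotides and cofactors were the largest class, with 8 of 9 lower on average (48.8% of all genes were). Of the same 9, 2 were lower with an unadjusted p under 0.05 (10.6% of all genes were). The coenzyme A carrier Slc25a42 (chromosome 8, 70636988 to 70664966, minus strand) stood at 31.9, 32.6, 43.5 and 44.9 CPM in the WT libraries and 16.2, 23.7 and 30.3 CPM in the LC3b-/- libraries. Each LC3b-/- library lay below each WT library (log2 fold change −0.71 ± 0.24 SE, adjusted p = 0.146). Slc25a16, a relative also linked to coenzyme A, stood at 44.8, 45.6, 58.3 and 60.4 CPM in the WT libraries and 29.3, 28.8 and 48.3 CPM in the LC3b-/- libraries, where LC3b-/- F1 and F3 were below WT and LC3b-/- M inside its range (log2 fold change −0.56 ± 0.22 SE, adjusted p = 0.187). Slc25a17, which lies in the peroxisomal membrane and carries coenzyme A, FAD and NAD, was the exception in direction. It stood at 26.4, 28.5, 28.0 and 27.0 CPM in the WT libraries and 46.9, 29.1 and 33.3 CPM in the LC3b-/- libraries, with a narrow WT range that every LC3b-/- library exceeded (log2 fold change 0.41 ± 0.17 SE, adjusted p = 0.199). LC3b-/- F1 was the highest, and without it the log2 fold change was 0.18. Ucp1, Slc25a42, Slc25a4 and Slc25a15 lie on the same chromosome as the targeted gene, 38.3, 51.7, 75.7 and 99.4 Mb from it.

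The pyrimidine nucleotide carriers Slc25a33 and Slc25a36 overlapped between the groups. Slc25a33 stood at 21.5, 36.5, 31.0 and 22.6 CPM in the WT libraries and 13.1, 26.8 and 24.5 CPM in the LC3b-/- libraries (log2 fold change −0.38 ± 0.29 SE, adjusted p = 0.458). Slc25a36 stood at 51.4, 40.2, 46.8 and 46.9 CPM in the WT libraries and 35.6, 40.2 and 48.8 CPM in the LC3b-/- libraries (log2 fold change −0.16 ± 0.14 SE, adjusted p = 0.529). Their ratio, 0.420, 0.909, 0.663 and 0.482 in the WT libraries and 0.370, 0.666 and 0.504 in the LC3b-/- libraries, varied within each group more than between the groups. Other cofactor carriers are those of S-adenosylmethionine (Slc25a26), folate and FAD (Slc25a32) and NAD (Slc25a51). Their log2 fold changes were −0.19, −0.05 and −0.10, none with an unadjusted p under 0.05.

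Mitoferrin 1 (Slc25a37) and mitoferrin 2 (Slc25a28) bring iron into the matrix. Slc25a28 stood at 34.8, 31.5, 32.7 and 26.7 CPM in the WT libraries and 24.1, 32.1 and 29.8 CPM in the LC3b-/- libraries (log2 fold change −0.13 ± 0.15 SE, adjusted p = 0.612). Slc25a37 (chromosome 14, 69479297 to 69522561, minus strand) stood at 32.5, 24.1, 29.7 and 24.0 CPM in the WT libraries and 26.6, 29.8 and 29.0 CPM in the LC3b-/- libraries and was level between the groups (log2 fold change 0.05 ± 0.14 SE, adjusted p = 0.866). This value may depend in part on how reads were divided with a neighbouring locus, and how far it does was not tested. The first coding exon of Slc25a37, at chr14:69522181-69522390 (GRCm39, minus strand), is repeated base for base at chr14:69740431-69740640 in an exon of Gm16867, a protein-coding gene model on the same strand. The stretch is printed because reads that lie within it cannot be assigned by sequence, with capitals for the 3 codons of the first signature motif, at which it ends.
Slc25a37 exon 1, coding part: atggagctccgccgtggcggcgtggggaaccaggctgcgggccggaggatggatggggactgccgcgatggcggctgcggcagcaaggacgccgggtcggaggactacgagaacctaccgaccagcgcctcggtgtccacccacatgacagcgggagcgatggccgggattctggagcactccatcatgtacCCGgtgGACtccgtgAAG
Of the 915 windows of 100 bases in the Slc25a37 coding sequence, 112 (12.2%) also occur in Gm16867 transcripts.

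Gm16867 itself had 720, 595, 326 and 631 counts in the WT libraries and 2, 4 and 0 counts in the LC3b-/- libraries, a difference larger than the spread of either group (log2 fold change −8.31 ± 0.65 SE, adjusted p = 0.00576). In CPM it stood at 21.1, 24.7, 12.2 and 24.3 CPM in the WT libraries and 0.0805, 0.10 and 0 CPM in the LC3b-/- libraries. In WT the neighbour was thus counted about as often as the carrier in F2 and M1 and less often in F1 and F3, and in LC3b-/- almost never. When all counts of Gm16867 were added to Slc25a37, its log2 fold change turned from 0.05 to −0.75 (adjusted p = 0.0628), and the ratio of Slc25a28 to Slc25a37 turned from a log2 difference of −0.19 to 0.61. This sum takes in every Gm16867 count and is an extreme case. Of the coding windows of Slc25a37, 12.2% also occur in Gm16867 transcripts and the rest do not. How many Gm16867 counts came from the shared stretch was not tested. Other genes near Gm16867 on chromosome 14 were lower too. Gm27221 had 26, 25, 11 and 30 counts in the WT libraries and 0, 0 and 0 counts in the LC3b-/- libraries. Entpd4 was lower with no overlap (log2 fold change −0.73 ± 0.11 SE, adjusted p = 0.058, edgeR). Loxl2 was higher on average with overlap (log2 fold change 0.40 ± 0.34 SE). Strain background and genotype cannot be told apart for these genes.

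**Figure D5:**
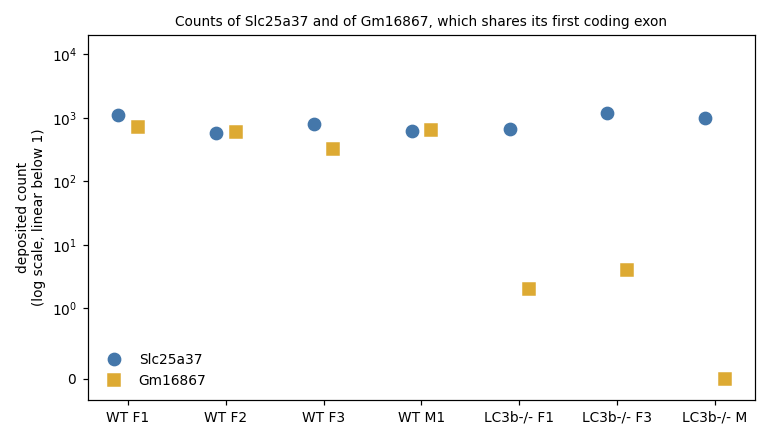
Deposited counts of Slc25a37 (circles) and of Gm16867 (squares), which shares its first coding exon, in each of the 7 libraries, on a log axis that turns linear below 1. Slc25a37 is well counted in every library, whereas Gm16867 goes from 326 to 720 counts in WT to between 0 and 4 in LC3b-/-.

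Slc25a39 and Slc25a40 carry glutathione into the matrix. Slc25a39 stood at 97.7, 96.7, 117 and 124 CPM in the WT libraries and 93.1, 79.0 and 95.9 CPM in the LC3b-/- libraries. Slc25a40 stood at 9.25, 9.36, 11.8 and 10.5 CPM in the WT libraries and 7.73, 8.40 and 8.80 CPM in the LC3b-/- libraries. In both genes every LC3b-/- library was below every WT library, by a small margin (log2 fold changes −0.29 and −0.30, adjusted p = 0.25 and 0.292). Of the 7 ratios theirs differed least between the groups, at 10.5, 10.2, 9.86 and 11.7 in the WT libraries and 11.9, 9.35 and 10.8 in the LC3b-/- libraries (mean log2 difference 0.01, adjusted p = 1.00).

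Among the carriers with other or less known roles, Slc25a47, which is best known from liver, stood at 4.57, 4.68, 6.63 and 7.42 CPM in the WT libraries and 2.30, 2.83 and 3.66 CPM in the LC3b-/- libraries. All LC3b-/- values were below the WT values (log2 fold change −0.99 ± 0.29 SE, adjusted p = 0.115; DESeq2 adjusted p = 0.0193), and the log2 fold change stayed between −1.18 and −0.84 without any 1 library. Slc25a47 (chromosome 12, 108801972 to 108822741, plus strand) overlaps Slc25a29 by 230 bases on the opposite strand, and the libraries keep strand, though whether the counting used it is not given in the sources used here. Slc25a46, an outer membrane relative involved in mitochondrial fission and lipid transfer, stood at 28.3, 31.2, 33.5 and 34.3 CPM in the WT libraries and 21.9, 21.3 and 29.4 CPM in the LC3b-/- libraries, with overlap through LC3b-/- M (log2 fold change −0.39 ± 0.15 SE, adjusted p = 0.175). Slc25a34, Slc25a35, Slc25a43, Slc25a45 and Slc25a53 had log2 fold changes of −0.32, −0.19, 0.66, 0.77 and −0.45 with an unadjusted p above 0.05 in each.

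Carriers reach the inner membrane through the TOM complex, the small TIM chaperones and the TIM22 complex. Of 13 such import genes, all tested, 12 were lower on average (48.8% of all genes were; median log2 fold change −0.12) and none passed the edgeR threshold. An unadjusted p under 0.05 was found for Tomm22, Timm8b, Timm13 and Timm29, all lower, where 10.6% of all genes were lower with such a p. DESeq2 called Timm8b alone, and 3.08% of all genes as lower. Timm8b, a chaperone of the intermembrane space, stood at 51.6, 51.2, 58.0 and 68.9 CPM in the WT libraries and 36.0, 32.7 and 44.4 CPM in the LC3b-/- libraries, with no overlap (log2 fold change −0.61 ± 0.16 SE, adjusted p = 0.103; DESeq2 adjusted p = 0.0242). Timm29, a subunit of TIM22, stood at 58.9, 64.9, 77.2 and 80.7 CPM in the WT libraries and 39.5, 47.9 and 56.7 CPM in the LC3b-/- libraries, again with no overlap (log2 fold change −0.55 ± 0.17 SE, adjusted p = 0.125).

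Metabolites and ions also cross by routes outside the family, such as porins, the pyruvate carrier, sideroflexins and the calcium uniporter. Of 27 such genes, all tested, 20 were lower on average (48.8% of all genes were; median log2 fold change −0.13). At an unadjusted p under 0.05, 6 were lower (10.6% of all genes) and 3 higher (Mcu, Mcub and Slc8b1, against 13.5% of all genes). None passed the edgeR threshold, and DESeq2 called 3, of which Sfxn1 and Cpt2 were lower (3.08% of all genes) and Slc8b1 was higher (6.78%). The serine carrier Sfxn1 stood at 35.8, 33.7, 34.2 and 38.8 CPM in the WT libraries and 26.8, 19.5 and 19.1 CPM in the LC3b-/- libraries, with no overlap (log2 fold change −0.71 ± 0.15 SE, adjusted p = 0.0906; DESeq2 adjusted p = 0.00445). Cpt2, which rebuilds acyl-CoA in the matrix after transport by Slc25a20, was below WT in every LC3b-/- library (log2 fold change −0.62 ± 0.19 SE, adjusted p = 0.126; DESeq2 adjusted p = 0.0494). The sodium/calcium exchanger Slc8b1 was higher on average at 24.0, 15.2, 13.6 and 14.0 CPM in the WT libraries and 47.8, 32.5 and 22.4 CPM in the LC3b-/- libraries, with overlap (log2 fold change 1.03 ± 0.30 SE, adjusted p = 0.115; DESeq2 adjusted p = 0.0234). The porins Vdac1, Vdac2 and Vdac3 had log2 fold changes of −0.06, −0.16 and −0.03.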

How the data were processed

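RNA from the RPE of 7 mice was sequenced as stranded poly(A) libraries with single reads of 100 bases. The authors estimated reads per transcript with salmon against GENCODE vM26 (GRCm39) and summed them to genes with tximeta, and the deposited values are estimated counts, 1 per gene and library, given as whole numbers without scaling. Trimming, salmon options and the way of rounding are not given in the sources used here. All 7 columns were used (0 unused), with totals of 24495952 to 35616134 counts, so that carriers above 1 CPM rest on more than 20 counts per library. Identifiers were matched to GENCODE vM39 (51721 of 52740), which gave symbols, coordinates, transcript lengths and coding sequences on GRCm39.

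In R 4.3.3, edgeR 4.0.16 was run with filterByExpr (16990 genes), TMM scaling and its quasi-likelihood test for genotype, with no covariate in the model and p adjusted over all genes by Benjamini-Hochberg (biological coefficient of variation 0.398). Log2 values used a prior count of 2. DESeq2 1.42.0 and limma 3.58.1 (voom) were alternatives, as were other scalings and filters, sex as a covariate, females only, a replicate block given by mouse name, 1 library left out at a time, and near-identical copies (blastn 2.17.0, at least 95% identity over 100 coding bases) added. Ratios within a library were compared by exact two-sided permutation with SciPy 1.17.1 in Python 3.11.15. The fits were also run on simulated counts with known fold changes. That simulation had a lower dispersion than these data and no differences in cell content, so it does not bear on the results here.

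The members, roles and lists of partner and marker genes were chosen with earlier results of these data known. Named in full are carriers with an unadjusted p under 0.05 or called by edgeR or DESeq2, the 3 most abundant per kb in WT, and the members of 7 pairs of related carriers. Every other member is given by its values in its class, except 1 that enters the counts and sums but is not reported here.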

Additional observations from a re-analysis of the deposited data

Results flagged for a closer look

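In 1 of 52 sets of 4 WT values tested (45 carriers and 7 ratios), a library stood apart from the other 3. For Slc25a35, WT F3 was the highest at 20.4 CPM against 16.4, 16.6 and 17.0 CPM in the others, and its gap to the nearest of them was 0.840 of the WT range on the log2 scale. Chance flags about 1 in 20 such sets. No carrier differed in its response between the sexes by the genotype by sex term in edgeR at an adjusted p under 0.05 (smallest 0.998), with 3 of the 45 at an unadjusted p under 0.05 and 1 male mouse in each group.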

How the results depend on the processing

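No carrier was called under limma's voom, other scalings, other filters, sex as a covariate, females only, the replicate block, any 1 library left out or copies added. DESeq2 called 4, and an adjusted p under 0.1 with no fold threshold took in 1 (Slc25a41). Carriers higher at an unadjusted p under 0.05 numbered 2 with at least 10 counts in every library, a filter that leaves 41 carriers and drops Slc25a41 and Slc25a48. Those lower numbered 4 (without LC3b-/- F1) to 11 (without LC3b-/- M) with 1 library left out, and 5 without WT F3. The share of all genes with such a p was not taken in the alternative fits, so these counts are not read as a result about the carriers. Groups did not overlap for 7 carriers (5 of them lower) by library size alone, which is 15.6% of the carriers against 22.1% of all genes. With 1 library left out they did not overlap for 12 to 27 carriers, where the share of all genes ranged from 24.2% to 39.6%. The 27 came without LC3b-/- M, with 6 higher (13.3%, against 18.7% of all genes) and 21 lower (46.7%, against 20.9%). The carrier median stayed between −0.30 and −0.15 in all 17 alternatives. The sign was the same in every alternative for 41 of 45 carriers, 32 of them lower. Adding all counts of Gm16867, the extreme case, gave Slc25a37 −0.75 and the ratio of Slc25a28 to Slc25a37 0.61.

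Sign changes were otherwise near 0. Slc25a5 ranged from −0.08 to 0.16 with 1 library left out. Slc25a13 was −0.02 by DESeq2, by voom and with DESeq2 size factors, −0.01 with no filter and with sex as a covariate, and −0.13 to 0.24 with 1 library left out. Slc25a37 was −0.03 in females, and −0.02 to 0.14 with 1 library left out. The ratio of Slc25a39 to Slc25a40 ranged from −0.07 to 0.11, and that of Slc25a18 to Slc25a22, which rests on few counts, from −0.46 to 0.47 (0.16 with a prior count of 10, 0.07 in females). The cause was not tested. With the mouse name as a replicate block, 2 carriers were higher and 11 lower at an unadjusted p under 0.05, Slc25a13 was −0.10, Slc25a37 −0.00151, and Map1lc3b kept −3.98 at an adjusted p of 0.110, where 2 residual degrees of freedom remained; F1 and F3 are numbers within differently numbered mouse groups, so the samples share only a number.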
